A study of Mus musculus with 12 samples.

Results

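Imprinted genes are expressed mainly from the allele inherited from 1 parent. The 41 imprinted genes described here, 36 protein-coding and 5 non-coding, are known as imprinted from other work, and were chosen for description with earlier results of these data known, out of 32093 protein-coding and long non-coding genes of the annotation. Of these, 24 are best known as expressed from the paternal allele, 16 from the maternal allele and 1, Gnas, from either allele depending on the transcript. A gene was given a peak where a called peak met its body or the 5 kb on either side by at least 1 bp (GRCm38, the assembly also named mm10). The genes lie on 10 chromosomes, 16 of them on chromosome 7, and their windows merged into 32 stretches of 2.91 Mb in all, so that neighbours shared peaks.

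Allele-specific expression is set up by control regions, CpG-rich stretches that are methylated in 1 germ line only. After fertilisation the methylated copy is kept so by KRAB zinc-finger proteins such as ZFP57, which bind it and bring H3K9me3, a modification of silent chromatin, while the unmethylated copy often acts as a promoter with H3K4me3. Some imprinted promoters carry H3K27me3, the modification of Polycomb repression, in place of DNA methylation or beside it, and H3K4me1 lies at enhancers and promoter flanks. Chromatin of both alleles was precipitated together, so an allele cannot be assigned to a peak here.

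The data came from ChIP-seq of mouse small intestine separated into crypts, which hold stem and dividing cells, and villi, which hold differentiated cells, in a study of the cleavage of histone H3 tails. The strain, age and sex of the animals and whether animals were pooled are not given in the sources used here, no genotype or treatment distinguishes the libraries, and every library carried a spike-in of Drosophila S2 chromatin. Each modification was measured in a single library of each compartment, so no comparison between crypts and villi has a replicate check and no test was made. Peak lists of 8 libraries were used (H3K4me3, H3K4me1, H3K27me3 and H3K9me3, in each compartment).

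The lists held between 2089 peaks (H3K9me3, villi) and 55341 peaks (H3K4me1, villi), and the read depth behind them is unknown. The H3K27me3 list of villi was longer than that of crypts, with 13797 against 7611 peaks. H3K4me3 within 1 kb of a start was found at 4 of 4 epithelial markers in both lists (Epcam, Vil1, Cdx2 and Krt8) and at 4 of 4 villi markers in both. Of 4 crypts markers, 4 had it in crypts and 3 in villi, Olfm4 being the one without. Of 3 lymphocyte markers (Ptprc, Cd3e and Cd8a), 0 had H3K4me3 in crypts and 3 in villi. Mesenchymal markers had it at 1 of 3 in both and endothelial markers at 0 of 2 in both. The H3K9me2 lists, of 6 and 3 peaks, had none at an imprinted gene.

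The sequences below are stretches of the regions where H3K9me3 was called at imprinted control regions, shown because these are the places on which the results turn. They are read 5′ to 3′ from the plus strand of GRCm38.p6 (RefSeq), outside annotated UTRs. Capitals mark TGCCGC or its reverse complement GCGGCA, the letters that ZFP57 is known to recognise. Apart from the second, each is the 150-base stretch of its region with the most matches, so the number of matches in it was chosen. The first lies at chr7:6730042-6730191, just inside Peg3, where H3K4me3 and H3K9me3 peaks of crypts intersected. The second, chr7:6728943-6728988, is the whole intersection of the same 2 modifications in villi. The third, chr6:30737576-30737725, lies in the villi H3K9me3 peak of Mest. The fourth, chr2:174297413-174297562, lies in the larger crypts H3K9me3 peak of Gnas. The fifth, chr12:109527536-109527685, lies in the villi H3K9me3 peak upstream of Meg3, and a short unit recurs along it.
Peg3/Usp29 crypts: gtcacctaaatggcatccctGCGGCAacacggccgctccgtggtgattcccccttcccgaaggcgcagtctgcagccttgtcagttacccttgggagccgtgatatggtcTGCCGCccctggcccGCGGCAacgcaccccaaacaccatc
Peg3/Usp29 villi: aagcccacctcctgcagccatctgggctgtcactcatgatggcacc
Mest villi: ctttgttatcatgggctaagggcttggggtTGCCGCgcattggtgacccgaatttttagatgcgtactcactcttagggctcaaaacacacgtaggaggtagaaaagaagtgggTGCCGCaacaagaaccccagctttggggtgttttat
Gnas crypts: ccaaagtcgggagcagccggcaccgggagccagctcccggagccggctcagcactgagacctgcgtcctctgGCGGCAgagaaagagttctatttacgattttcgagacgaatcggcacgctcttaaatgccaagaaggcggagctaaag
Meg3 upstream villi: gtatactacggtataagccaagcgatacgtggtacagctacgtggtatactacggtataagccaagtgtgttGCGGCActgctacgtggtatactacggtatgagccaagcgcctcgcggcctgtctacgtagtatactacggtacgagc

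Peaks of the 4 modifications were spread unevenly over the imprinted genes. H3K4me3 was called at 24 of 41 genes in crypts (58.5%, 95% Wilson interval 43.4 to 72.2%) and at 26 in villi (63.4%, 48.1 to 76.4%). The same rule called 52.5% of all genes in crypts and 52.9% in villi, values inside those intervals. H3K4me1 was called at 27 genes in each compartment (65.9%, 50.5 to 78.4%), beside 62.0% and 61.7% of all genes, so that for both H3K4 modifications the imprinted genes were near the background.

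H3K27me3 and H3K9me3 were called at a larger share of the imprinted genes than of all genes. H3K27me3 was at 13 imprinted genes in crypts (31.7%, 19.6 to 47.0%) and at 19 in villi (46.3%, 32.1 to 61.3%), beside 15.7% and 20.6% of all genes. With the villi H3K27me3 list cut to the number of crypts peaks by score, fewer imprinted genes had it in villi than in crypts. The share of all genes with that cut list was not computed for this window. H3K9me3 was at 8 imprinted genes in crypts (19.5%, 10.2 to 34.0%) and at 5 in villi (12.2%, 5.32 to 25.5%), beside 3.45% and 2.82% of all genes. The intervals cover counting error over genes only, and genes that share a peak are not independent. Imprinted genes were also longer, with a median of 30.7 kb against 12.8 kb for all genes, and the part of length in these shares was not tested. Over protein-coding genes alone, with a median length of 17.4 kb, the shares were 17.9% and 23.0% for H3K27me3 and 3.91% and 3.12% for H3K9me3.

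Peaks within 1 kb of an annotated start were also counted. The imprinted genes had a median of 4.00 annotated starts against 2.00 for all genes, and the part of the number of starts in these shares was not tested. H3K27me3 marked 12 imprinted genes in crypts (29.3%) and 15 in villi (36.6%), beside 11.4% and 14.2% of all genes. H3K4me3 marked 23 in crypts (56.1%) and 25 in villi (61.0%), beside 46.2% and 46.4% of all genes. H3K9me3 marked 5 in crypts (12.2%) and 3 in villi (7.32%), beside 0.467% and 0.405% of all genes. At the first start alone, an alternative added after seeing the data, H3K27me3 marked 10 imprinted genes in crypts (24.4%) and 14 in villi (34.1%), beside 10.4% and 12.9% of all genes, and H3K9me3 marked 3 and 1 (7.32% and 2.44%), beside 0.271% and 0.268%.

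**Figure D1:**
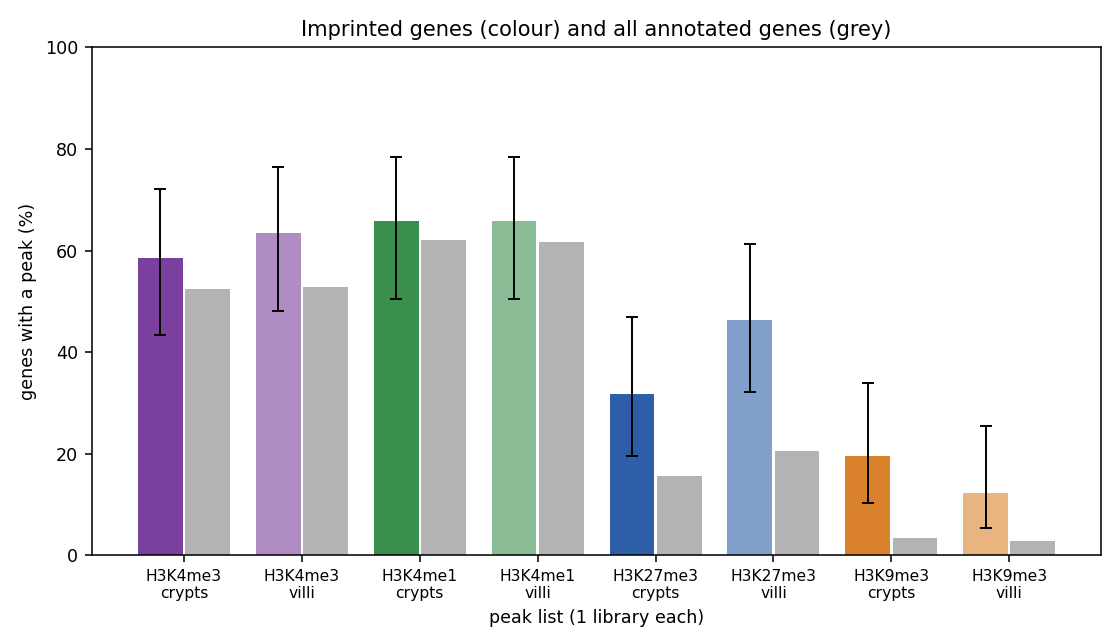
Percent of genes with a called peak in the gene body or 5 kb on either side, for each of the 8 peak lists (1 library each). Coloured bars are the 41 imprinted genes with 95% Wilson intervals (counting error only) and grey bars all 32093 annotated genes: the grey bars lie inside the interval for H3K4me3 and H3K4me1 and below it for H3K27me3 and H3K9me3.

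Peaks of H3K4me3 and H3K9me3 met at few places in the genome, and imprinted genes were among them in both compartments. In crypts, 12 of 2126 H3K9me3 peaks met an H3K4me3 peak (0.564%), and in villi 13 of 2089 did (0.622%). Of these, 1 of 12 in crypts (8.33%) and 4 of 13 in villi (30.8%) lay at an imprinted gene. Counted by gene, the intersection was found at 2 imprinted genes in crypts, Peg3 and Usp29, which share it, beside 0.0748% of all genes. In villi it was found at 5, Peg3, Usp29, Mest, Mkrn3 and Impact, beside 0.146% of all genes. Of the H3K9me3 peaks that met H3K4me3 elsewhere, 2 in crypts and 5 in villi had a score above 100. The score, taken here as the authors' −log10 p-value for the peak, was 10.0 or more in every list and is read only within a list. Those at imprinted genes scored 22.0 in crypts and 10.1 to 14.8 in villi. The other 9 in crypts scored 10.0 to 28.3, a range that takes in the imprinted peak. The other 4 in villi scored 12.8 to 30.6, mostly above the imprinted ones.

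Peg3 encodes a zinc-finger protein and Usp29 a ubiquitin peptidase, and both start from a divergent promoter at the Peg3 control region. In crypts, H3K9me3 covered chr7:6727852-6730399 with a score of 22.0, among the top 7.90% of its list. It took in the whole H3K4me3 peak at chr7:6729147-6730372 (score 31.2), a shared stretch of 1226 bp, and H3K27me3 was called across both starts at chr7:6729886-6731212 (score 10.9). All 3 modifications were thus called within the same stretch of crypts chromatin.

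In villi the Peg3 peaks lay further apart. H3K4me3 was at chr7:6728943-6730209 (score 20.1) and H3K9me3 at chr7:6727556-6728988 (score 10.1, at the very bottom of its list), and they met over 46 bp. The villi H3K9me3 peak therefore lay 1431 bp from the nearest annotated Peg3 start, where the crypts peak came within 20 bp of it. A second villi peak, at chr7:6707957-6708509, lay in an exonic part of Peg3 far from its start and met no other peak.

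At Mest, a hydrolase-family gene with an alternative promoter at its control region, H3K9me3 was called in both compartments about an internal start, centred 14.6 kb from the first annotated start in crypts and 14.5 kb in villi. The crypts peak was chr6:30736980-30739342 (score 11.3) and the villi peak chr6:30737456-30738713 (score 14.8). In villi an H3K4me3 peak of 376 bp lay wholly inside it, at chr6:30737912-30738287 (score 11.8, top 95.7% of its list). In crypts no H3K4me3 was called there, the nearest H3K4me3 peak being 42739 bp from the H3K9me3 peak. H3K27me3 lay over the same start in both, at chr6:30734082-30740032 in crypts and chr6:30736121-30739350 in villi.

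Mkrn3, a makorin-type ring-finger gene of the Prader-Willi region, carried H3K4me3 at its start in both compartments (score 56.8 in crypts and 72.6 in villi). H3K9me3 was called in villi alone, at chr7:62419062-62419769 (score 11.6), and met the end of the H3K4me3 peak that lies inside the gene over 313 bp. Impact, whose product modulates the kinase GCN2, had an H3K4me3 peak at its first start and another about 17.2 kb into the gene in crypts (scores 298 and 44.1) and 17.1 kb in villi (scores 206 and 44.0). A villi H3K9me3 peak of 561 bp (score 10.4, top 92.7% of its list) lay wholly within the internal one. The H3K4me3 peaks of Mkrn3 and Impact were thus found in both compartments, and the intersection rested on weak H3K9me3 peaks called in 1 of them. With the top 50% of each list by score, 0 imprinted genes had an intersection of H3K4me3 and H3K9me3 in either compartment.

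**Figure D2:**
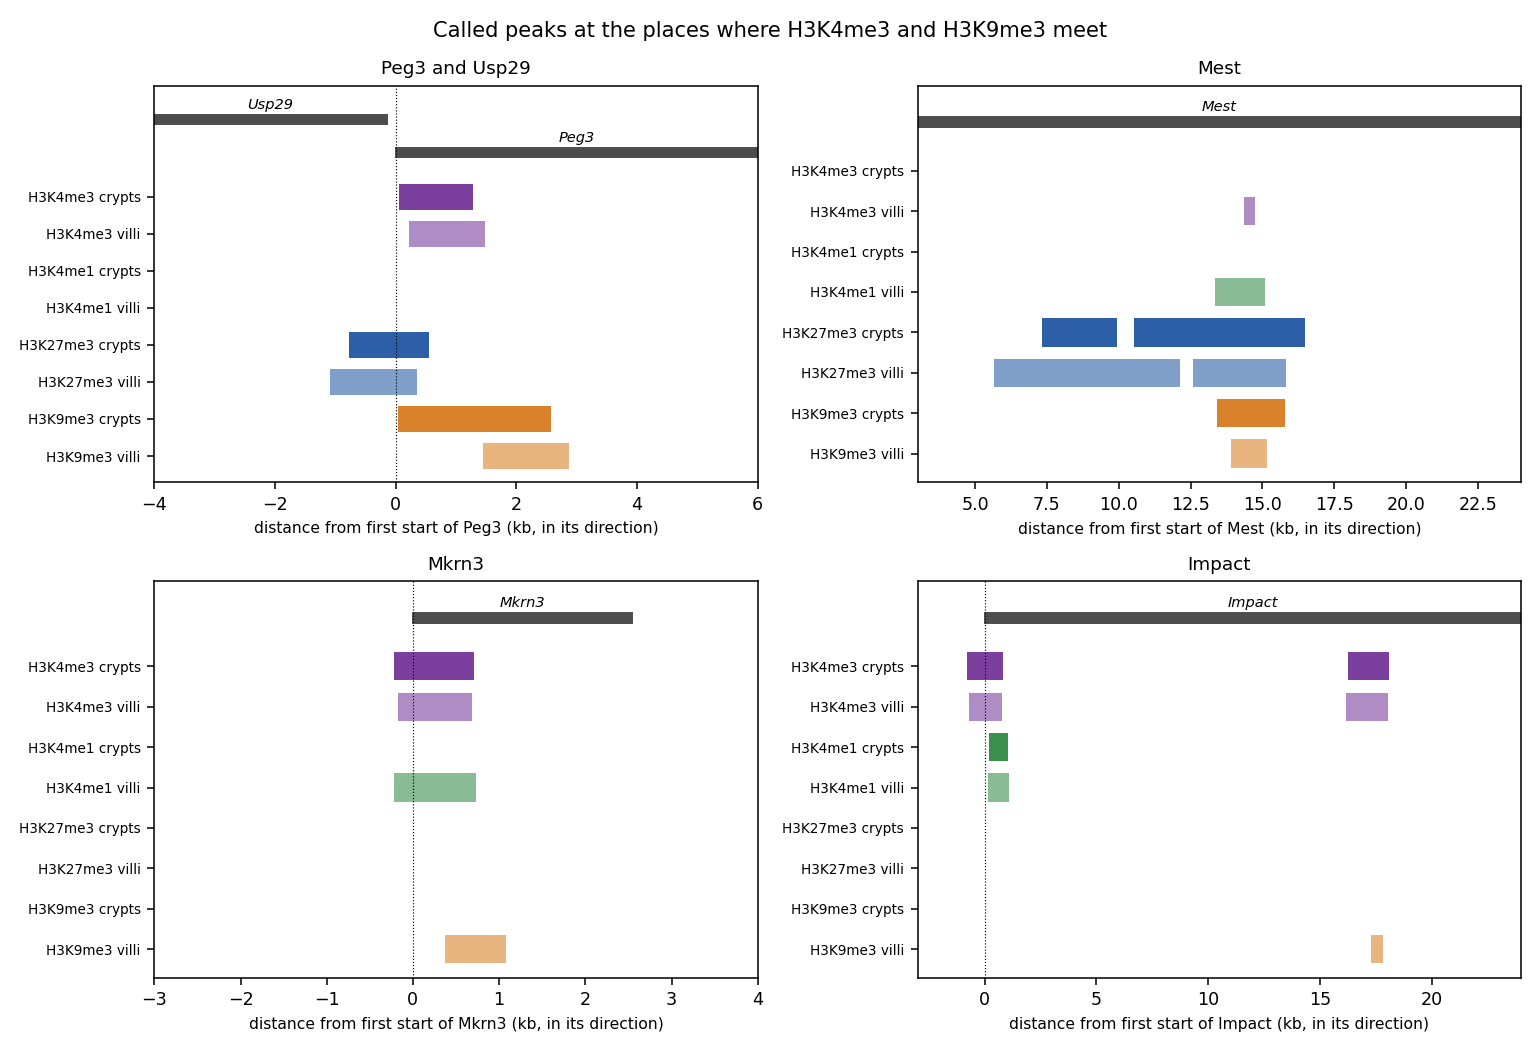
Called peaks in 8 lists (1 library each) at the imprinted genes where H3K4me3 and H3K9me3 met, by distance in kb from the first annotated start in the direction of transcription. Coloured blocks are peaks, crypts dark and villi light, and grey bars are gene bodies; at Peg3 the H3K9me3 block takes in the H3K4me3 block in crypts and only touches it in villi.

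H3K9me3 was called in crypts alone at 5 imprinted genes, Igf2r, Airn, Grb10, Plagl1 and Gnas (12.2%, 5.32 to 25.5%), beside 1.77% of all genes. In villi alone it was called at 2, Mkrn3 and Impact (4.88%, 1.35 to 16.1%), beside 1.14%. These peaks fell into those at a start and those away from one, which the next sentences take in turn.

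Grb10 encodes an adaptor that dampens insulin and IGF receptor signalling, and its control region is an internal promoter. The crypts H3K9me3 peak chr11:12025625-12026137 (score 15.0) lay 187 bp from an annotated start, 12.8 kb into the gene, and at the edge of an H3K27me3 peak. No H3K4me3 was called within 5 kb of Grb10 in either compartment. At Gnas, the locus of the stimulatory G-protein alpha subunit, the crypts peaks were chr2:174285066-174286260 (score 11.7), over exons of Gnas and of its antisense transcript Nespas, and chr2:174297047-174299137 (score 11.9), over an internal start. The second lay within H3K27me3 peaks of both compartments, whereas the H3K4me3 of Gnas lay downstream, 27256 bp away in crypts. In villi, which had no H3K9me3 there, a weak H3K4me3 peak (score 10.5) was called 1305 bp from the place of the second.

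The other crypts peaks were not at starts. Airn, the antisense RNA that silences Igf2r, had 3 of them between chr17:12819429 and chr17:12826875, the closest 3498 bp from an annotated Airn start, and none was at its main promoter. The Igf2r peak lay past the end of that gene, and the Plagl1 peak (score 10.4, top 95.9% of its list) 10676 bp from a start of this zinc-finger gene. Upstream of Meg3, a maternally expressed non-coding RNA with no peak of its own in any list, a villi H3K9me3 peak was called at chr12:109527422-109528214 (score 10.4), between 12.8 and 13.6 kb before its start, inside the window taken for the control region of the Dlk1-Dio3 cluster.

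**Figure D3:**
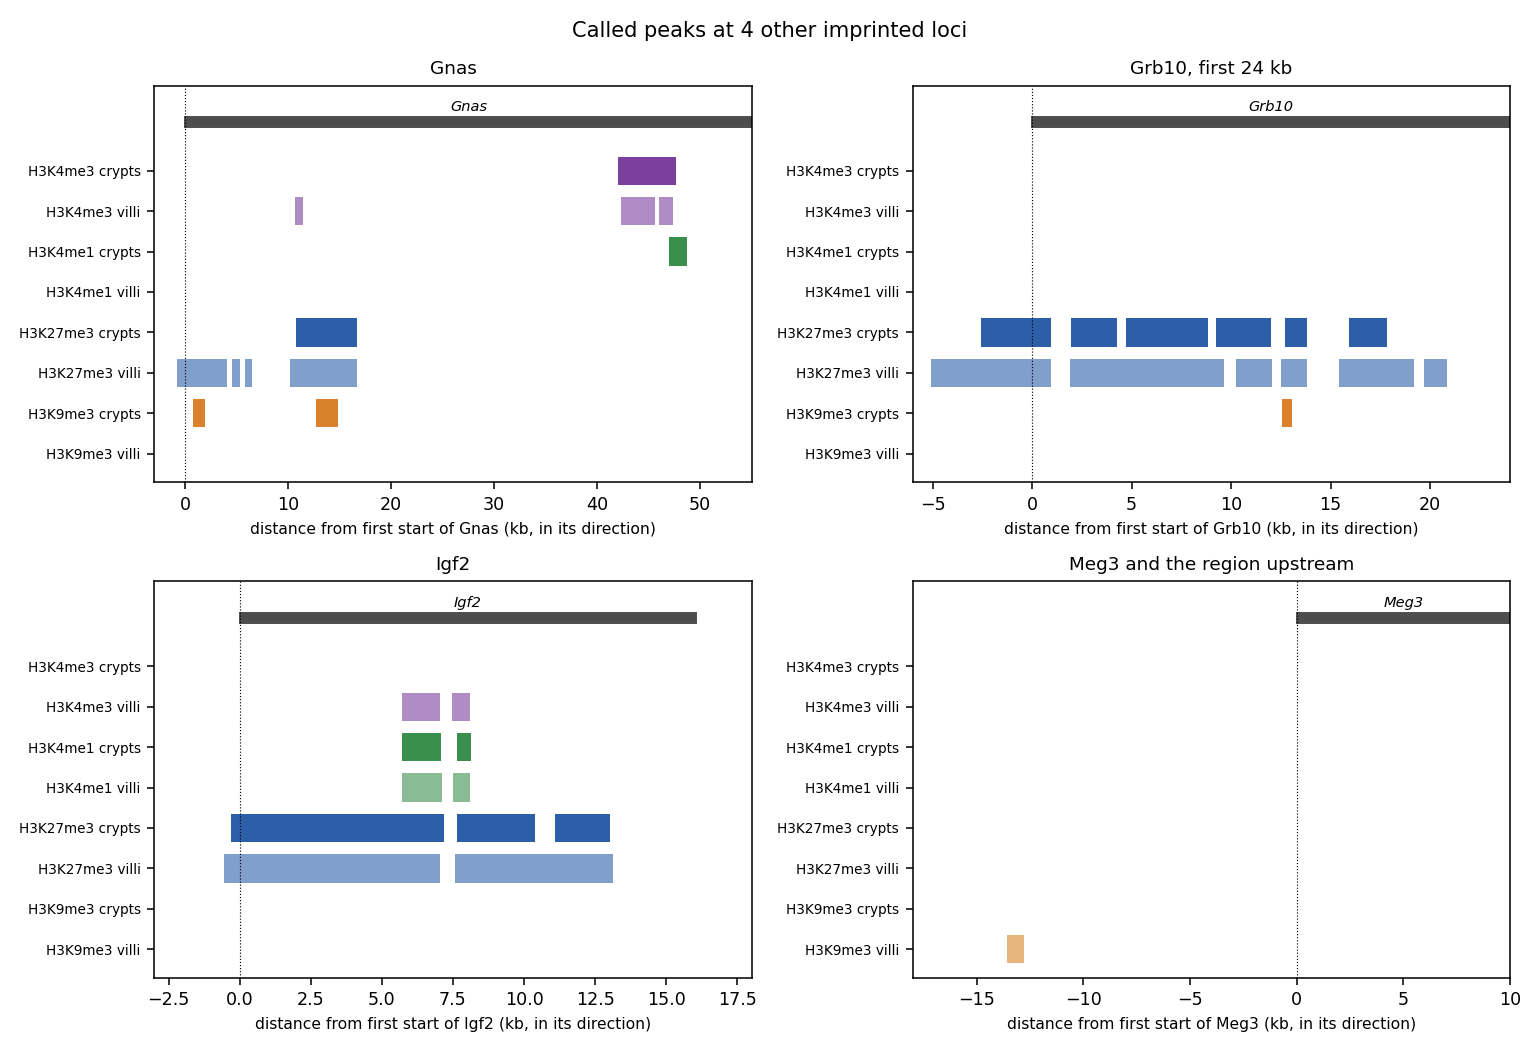
Called peaks in 8 lists (1 library each) at Gnas, the first part of Grb10, Igf2 and the region upstream of Meg3, by distance in kb from the first annotated start in the direction of transcription. Coloured blocks are peaks, crypts dark and villi light, and grey bars are gene bodies; the H3K9me3 blocks of Gnas and Grb10 are in crypts and that of Meg3 is in villi.

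Control regions were then counted as windows: 2 kb on either side of any start for 17 genes, and a stretch upstream of H19 (1 to 5 kb), Meg3 (10 to 16 kb) and Rasgrf1 (25 to 41 kb), 20 in all. The windows are approximate. Over all genes, windows of 2 kb on either side of any start held H3K4me3 at 47.1% in crypts and 47.4% in villi, H3K27me3 at 12.0% and 15.2%, H3K9me3 at 0.720% and 0.626%, and an intersection of H3K4me3 and H3K9me3 at 0.0499% and 0.0717%. Control-region genes with many starts, such as Gnas with 16, had more windows, and the part of this was not tested. H3K4me3 was called in 12 of them in crypts and 13 in villi, the additional one being Mest. H3K9me3 was called in 5 in each, Peg3, Usp29, Mest, Grb10 and Gnas in crypts and Peg3, Usp29, Mest, Impact and Meg3 in villi, so that 3 windows had it in both. An intersection of both was in 2 windows in crypts and 4 in villi. Peg3 and Usp29 share a divergent promoter and its peaks, so in all these counts 1 place stands as 2 windows. H3K27me3 was called in 8 in crypts and 9 in villi, and was the only modification upstream of H19 (1 and 2 peaks) and Rasgrf1 (3 and 6 peaks), whose control regions are methylated in the male germ line. Kcnq1ot1, whose start is the control region of the Kcnq1 domain, had none of the 4 modifications within 2 kb of that start in either list.

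Several control-region promoters lie inside another gene or are an internal promoter of their own gene, and their H3K4me3 could be set beside that of the outer promoter in the same library. These pairs were chosen after the values were seen. Where the inner promoter belonged to another gene, the host peak scored higher in 4 of 4 pairs in crypts and in 3 of 4 in villi. For the internal promoters of Impact, described with its scores above, and of Inpp5f, the first promoter scored higher in both compartments. Only genes with H3K4me3 at both promoters could form a pair. Plagl1 (scores 27.2 in crypts and 44.0 in villi) and Snrpn (105 and 92.7) had H3K4me3 at an internal start and none at the first. The same held for Gnas in both compartments and for Mest in villi, so the pairs do not describe all internal promoters. H13, which encodes signal peptide peptidase, scored 500 in crypts and 275 in villi, and the retrogene Mcts2 inside it 85.9 and 75.0. Trappc9, a trafficking-complex gene, scored 421 and 344, and the non-coding Peg13 in its intron 104 and 91.7. Igf2r, the receptor that clears IGF2, scored 157 and 98.1, and Airn 125 and 87.8, the narrowest gap.

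For Inpp5f, a phosphatase gene, the first promoter scored 229 and 142 and the internal one 45.9 and 39.6. The exception was Commd1, a copper-handling gene, which scored 252 in crypts and 174 in villi, against 187 and 200 for the retrogene Zrsr1 inside it. Nnat, which lies inside Blcap, had no H3K4me3 within 1 kb of its own starts. The peak in its window lay 3969 bp from them in crypts and 3722 bp in villi.

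**Figure D4:**
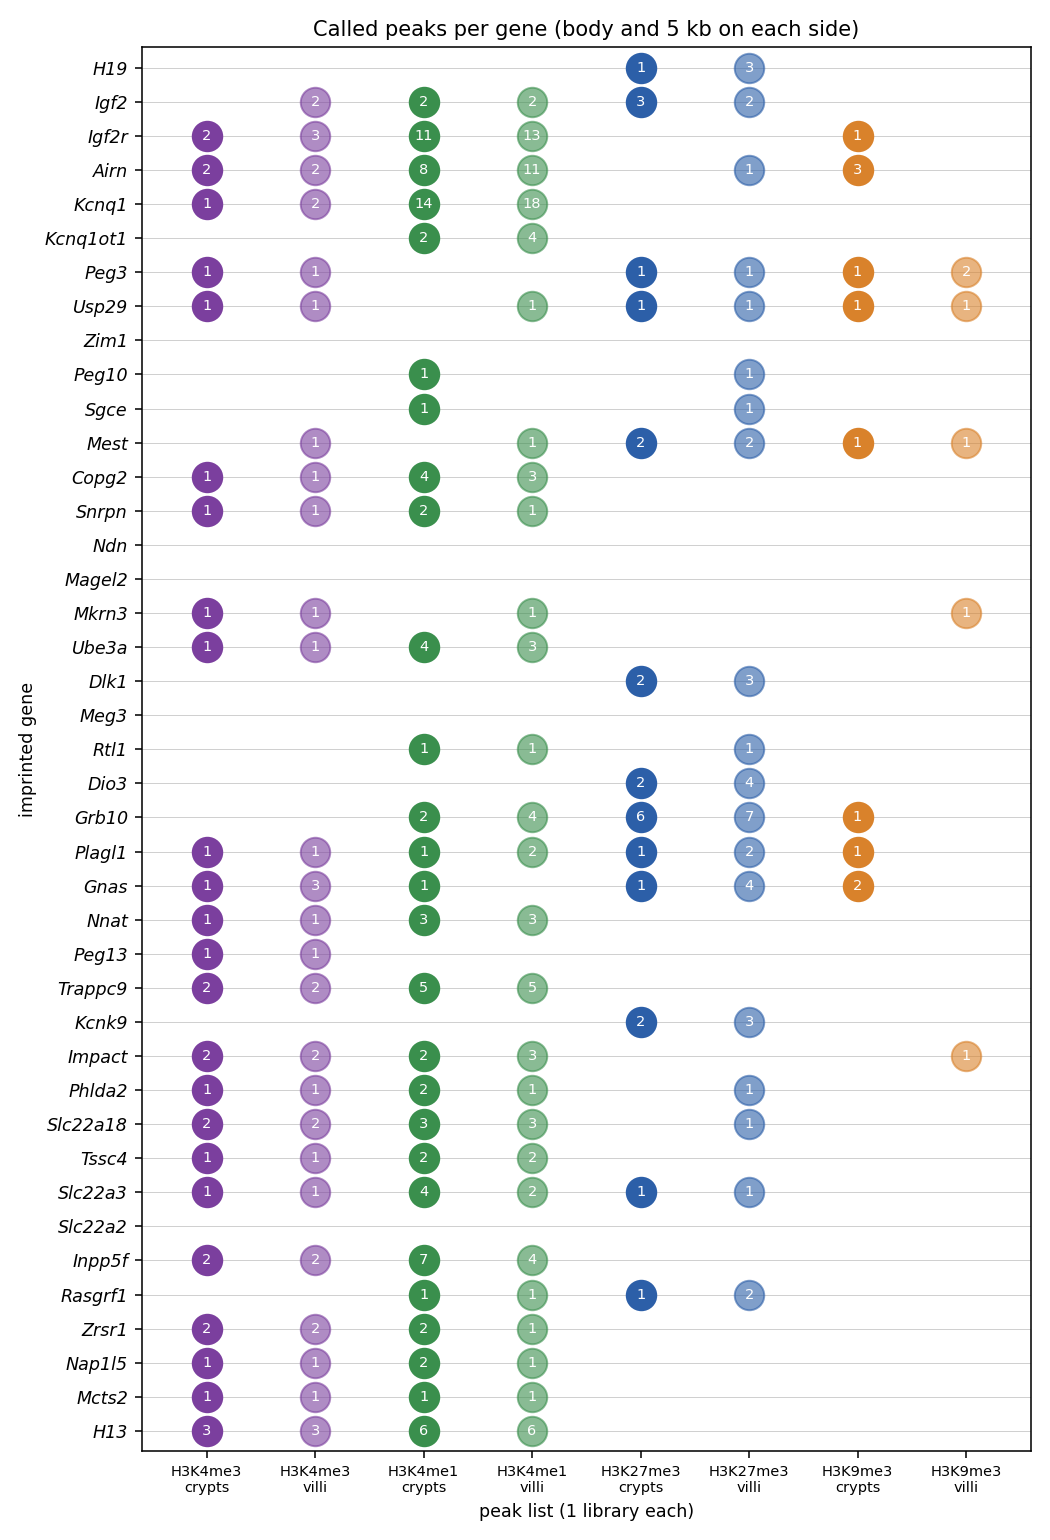
Number of called peaks at each of the 41 imprinted genes (rows, body and 5 kb on either side) in each of the 8 peak lists (columns, 1 library each). A circle holds the number of peaks and an empty place means that none was called; 5 genes have no circle in any list.

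Zim1, Ndn, Magel2, Meg3 and Slc22a2 had no peak in any list. Ndn and Magel2 are MAGE-family genes of the Prader-Willi region, in which Snrpn, Ube3a and Mkrn3 had H3K4me3. Ube3a, a ubiquitin ligase gene whose imprinting is known mainly from neurons, had 1 of the highest H3K4me3 scores among the imprinted genes, 491 in crypts and 344 in villi. Grouped by parental expression, H3K4me3 within 1 kb of a start was found at 12 of 24 paternally expressed genes in crypts and 14 in villi, and at 10 of 16 maternally expressed genes in both, beside the 46.2% and 46.4% of all genes given above. H3K27me3 in the window was at 8 of 24 paternally expressed genes in crypts and 12 in villi, and at 4 and 6 of 16 maternally expressed genes, beside 15.7% and 20.6% of all genes. H3K9me3 in the window was at 5 of 24 paternally expressed genes in each compartment, and at 2 of 16 maternally expressed genes in crypts and 0 in villi, beside 3.45% and 2.82% of all genes. The difference between the classes was not tested.

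The share of the gene body under H3K27me3 differed widely among the imprinted genes. Dio3, which encodes the deiodinase that inactivates thyroid hormone, had its body covered for 100% in both compartments. Igf2, the fetal insulin-like growth factor, was covered for 74.0% in crypts and 78.4% in villi, and Mest for 34.4% and 39.0%. H19, the non-coding RNA that shares enhancers with Igf2, was covered for 0% in crypts and 42.1% in villi. In crypts it had a single H3K27me3 peak, upstream of its start (score 13.4), and in villi that place and 2 more had peaks (scores 10.6 to 15.1). The covered 42.1% came from 1 villi peak with a score of 10.6, and with the villi list cut to the number of crypts peaks by score H19 was covered for 0% in villi as well.

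The remaining covered genes were lower. Dlk1, a Notch-related membrane protein gene, was covered for 11.4% and 20.0%, Gnas for 9.53% and 19.5% and Grb10 for 12.2% and 16.5%. Rasgrf1, a Ras exchange factor gene, had only 3.43% and 4.00% of its long body covered, but the peak over its start was among the strongest of the imprinted genes, with a score of 31.2 in crypts and 46.7 in villi. In total H3K27me3 peaks covered 49.4 kb of imprinted gene bodies in crypts (11 genes) and 70.5 kb in villi (16 genes), while the whole lists covered 20.3 and 35.6 Mb. The 11 and 16 genes are 26.8% and 39.0% of the imprinted genes, and of all genes 12.5% and 16.3% had H3K27me3 in the body. With the cut villi list the sum in villi was 57.7 kb, and of 5 genes covered in villi only (12.2%, beside 4.32% of all genes), Kcnk9 stayed covered and H19, Phlda2, Sgce and Airn were at 0% (1.99% of all genes were covered in villi only with that list).

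**Figure D5:**
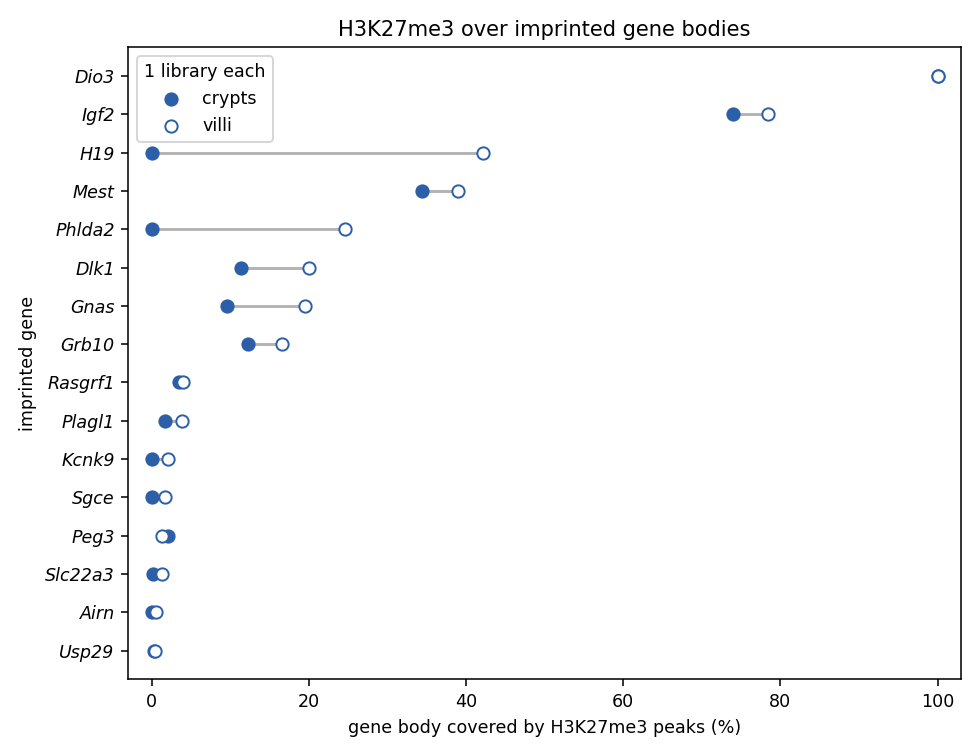
Percent of the gene body covered by H3K27me3 peaks for the 16 imprinted genes with any coverage, in crypts (filled) and villi (open), 1 library each. Dio3 is covered throughout in both, and 5 genes (H19, Phlda2, Kcnk9, Sgce and Airn) have coverage in villi only, of which Kcnk9 alone has it with the villi list cut to the number of crypts peaks.

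H3K27me3 was called in villi alone at 6 imprinted genes, Airn, Peg10, Sgce, Rtl1, Phlda2 and Slc22a18 (14.6%, 6.88 to 28.4%), beside 5.56% of all genes, and in crypts alone at 0, beside 0.676%. These were 4 distinct peaks, with scores of 10.3 to 11.4 near the villi threshold: Peg10, a retrotransposon-derived gene, and Sgce share 1, and the placental growth regulator Phlda2 and the transporter Slc22a18 share another. With the villi list cut to the number of crypts peaks by score, 0 imprinted genes had H3K27me3 in villi alone and 3 (Peg3, Usp29 and Slc22a3) had it in crypts alone. Peg3 and Usp29 share 1 crypts peak. The share of all genes with the cut list was not computed for this window, so these counts have no background beside them.

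H3K4me3 met H3K27me3 at 3 imprinted genes in crypts, Peg3, Usp29 and the cation transporter gene Slc22a3 (7.32%, 2.52 to 19.4%), beside 6.54% of all genes. In villi it did so at 9, those 3 and Igf2, Mest, Plagl1, Gnas, Phlda2 and Slc22a18 (22.0%, 12.0 to 36.7%), beside 7.74% of all genes. With the longer list of each modification cut to the length of the shorter, 3 imprinted genes had the intersection in villi (Igf2, Mest and Plagl1) and 3 in crypts, and with the top 50% of each list 0 had it in either. The share of all genes with the intersection was not computed for either kind of cut list. At Slc22a3 both modifications covered the start in both compartments.

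H3K4me3 was called in villi alone at 2 imprinted genes, Igf2 and Mest (4.88%, 1.35 to 16.1%), beside 1.55% of all genes, and in crypts alone at 0, beside 1.15%. At Igf2 the villi peaks were chr7:142658710-142659337 (score 39.1) and chr7:142659787-142661095 (score 19.7), each near an internal start, and H3K27me3 lay over part of the first and all of the second. H3K4me1 was called at the same places in crypts and villi, so crypts had H3K4me1 there with no H3K4me3. Neither the Igf2 nor the Mest peaks were in the top 50% of the villi list. The lymphocyte markers with H3K4me3 also numbered more in villi, 3 of 3 against 0 of 3, and the part of such cells in the peaks found in villi alone was not tested.

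H3K4me1 was called in crypts alone at 3 imprinted genes, Peg10, Sgce and Gnas, beside 3.13% of all genes. Peg10 and Sgce again shared the peak (score 10.3), and that of Gnas (score 21.7) lay 1056 bp from a start. It was called in villi alone at 3, Usp29, Mest and Mkrn3, beside 2.87% of all genes. At Mest (score 18.8) and Mkrn3 (score 13.5) the villi H3K4me1 peak lay over the same start as the villi H3K9me3 peak or next to it.

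The letters TGCCGC, on either strand, were denser in the H3K9me3 peaks of the imprinted genes than in the whole lists. With the Meg3 upstream peak counted, the 10 crypts peaks and 6 villi peaks held 1.61 and 3.39 matches per kb, against 0.169 and 0.182 over all H3K9me3 peaks and 0.501 and 0.490 over all H3K4me3 peaks. At least 1 match was in 5 of 10 crypts and 5 of 6 villi peaks, against 13.8% and 14.1% of all H3K9me3 peaks and 50.7% and 49.2% of all H3K4me3 peaks. In the central 300 bases alone, 2 of 10 and 2 of 6 held a match, against 4.94% and 5.27% of all H3K9me3 peaks and 18.5% and 18.3% of all H3K4me3 peaks. By the share of peaks with a match, the crypts peaks of the imprinted genes were thus near the H3K4me3 list. The imprinted peaks also held more CpG, with a median observed-to-expected ratio of 0.387 in crypts and 0.537 in villi against 0.206 and 0.211, and the part of base composition in the match counts was not tested.

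The matches were concentrated in a few peaks. Mest held 12 in its crypts peak and 10 in its villi peak, where the third printed stretch shows 2, and Peg3 held 8 in its crypts peak, where the first stretch shows 3. Impact and Mkrn3 held 3 each, Grb10 2 and the second Gnas peak 1, while the 3 Airn peaks held 0 and had CpG ratios of 0.0628 to 0.180. Within the intersections of H3K4me3 and H3K9me3, 7 matches lay in the 1 crypts intersection at an imprinted gene and 7 in the 4 of villi (4 at Mest and 3 at Impact). Elsewhere 0 of 11 crypts and 1 of 18 villi intersections held any, an H3K9me3 peak that met several H3K4me3 peaks giving several intersections. Most of those 18 lay in H3K9me3 peaks with a score above 100, many of them between chr9:3001457 and chr9:3036705. The villi comparison is thus mainly with such peaks, unlike the low-scoring ones of the imprinted genes.

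In the RefSeq promoter table (300 bases around a start), 11.6% of 32851 promoters held the letters. Of the imprinted genes 32 matched the table by symbol, with 45 promoters, of which 13 (28.9%) held them. A match describes the sequence and not a bound site.

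The genes that set and read imprints, and other genes of the imprinted clusters, were looked up in the same lists. Of 12 machinery genes, 9 had H3K4me3 within 1 kb of a start in crypts and 10 in villi. Those with it in both included Trim28 and Setdb1, the corepressor and the H3K9 methyltransferase recruited by KRAB zinc-finger proteins, Zfp445, and Dnmt1 and Uhrf1, which copy DNA methylation. Zfp57 had no H3K4me3 and had H3K27me3 at its start in both compartments. Dnmt3l had no H3K4me3 either, and Dppa3 had it in villi alone.

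Of 24 further genes of the clusters or hosts, 14 had H3K4me3 within 1 kb of a start in each compartment, beside 46.2% and 46.4% of all genes, and 8 in crypts and 13 in villi had H3K27me3 there, beside 11.4% and 14.2% of all genes. Cdkn1c, the cyclin-dependent kinase inhibitor of the Kcnq1 domain, and Ascl2, a transcription factor of intestinal stem cells, had both modifications at their starts in both compartments. H3K9me3 was in the window of 1 of the 24, Ppp1r9a, in each compartment, and none of the 24 had an intersection of H3K4me3 and H3K9me3.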

How the data were processed

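Crypts and villi libraries were grouped by the labels. Per the methods and the submitters' processing notes, paired reads were mapped by the authors to the mouse (mm10) and fly (dm6) genomes with Bowtie 1.1.2. PCR duplicates and reads that fitted both genomes were removed, and MACS2 2.1.1 called the peaks at a p-value threshold of 1e-10. The deposited number beside each peak was read as −log10 of the authors' p-value, since none was under 10.0. A q-value on the same scale cannot be told apart from it, and the spike-in does not enter it. No group had a replicate, so precision is limited by 1 library per group. Read counts and the input files were not used here, so depth is unknown.

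Peaks were intersected (1 bp or more) with GENCODE M21 genes of GRCm38 in Python 3.11.15 with NumPy 2.4.6, and sequences were read with pysam 0.24.0 and samtools 1.23.1. Figures were drawn with Matplotlib 3.10.9. No peak ran past a chromosome end. Shares carry 95% Wilson intervals. Overlap functions were tested on simulated data. The planned test of each result was a count with no p-value. All 41 genes could be named, and those with overlapping modifications, H3K27me3 or a difference between compartments were described. The imprinted genes, gene lists, markers and windows were chosen with earlier results of these data known, and parental classes are textbook knowledge. Alternatives were other flanks (0, 2 and 10 kb), start windows (1 and 5 kb), the top 50% of each list, lists of equal length and stricter or looser overlap.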

Additional observations from a re-analysis of the deposited data

How the results depend on the processing

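With the flank set to the gene body, 2 kb or 10 kb, or with 50% of the peak required inside it, every count of genes with a peak stayed within 1.5 times the value reported. Of 142 alternative values over 34 results, 108 stayed within that range and 34 moved. No paired analysis was possible because each group holds 1 library.

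The top 50% of each list left H3K4me3 at 10 genes in crypts and 11 in villi, H3K27me3 at 6 and 10, and H3K9me3 at 5 and 2. Shares of all genes were not computed with these lists, so whether the counts differ from the background there is unknown. The top 50% gave 1 gene with H3K4me3 in villi alone (Slc22a18) and 1 with H3K9me3 in villi alone (Mest), both of which have that modification in both compartments in the whole lists. H3K27me3 was then in villi alone at 4 genes (H19, Dlk1, Plagl1 and Kcnk9), none of them among the 6 of the whole lists. There were 0 intersections of H3K4me3 with H3K9me3 or with H3K27me3 in either compartment. Of the control regions it left 3 and 1 with H3K9me3, 4 and 4 with H3K4me3, and 0 and 0 with both. The intersections thus rest on peaks in the lower 50% of at least 1 list.

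Lists of equal length gave H3K27me3 in crypts alone at 3 genes and in villi alone at 0, and, added later, intersections of H3K4me3 with H3K27me3 at 3 genes in villi. For H3K4me3 with H3K9me3, requiring 200 bp of intersection left 3 genes in villi, Peg3 and Usp29 being lost, and the gene body alone left 1 in crypts. Starts taken with 1 kb left 3 control regions with H3K9me3 in villi and 2 with both. As an alternative added after seeing the data, a peak of the top 50% with no peak in the whole other list was called in villi alone at 0 genes for H3K4me3, H3K27me3 and H3K9me3 and at 1 for H3K4me1, and in crypts alone at 1 for H3K4me1 and 3 for H3K9me3. Shares of all genes by the 5 kb window were computed neither for this alternative nor for lists of equal length. Widening the start window to 2 kb or taking the first start alone, also added later, kept the counts of H3K4me3 and H3K27me3 at starts within 1.5 times. For H3K9me3 the first start alone gave 3 genes in crypts and 1 in villi, and the 2 kb window 5 in villi. Depth is unknown, so a place without a peak is one where none was called and not one shown to lack the modification.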
